A study of Phelipanche ramosa with 8 samples.

Results

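The 12 h arrays of germinated seeds of *Phelipanche ramosa*, a root parasite of oilseed rape that has no chlorophyll, carried 2 contigs whose best Arabidopsis match is an enzyme of jasmonate metabolism, JAR1 (Pram_17697) and PKT3 (Pram_46897). They were taken by their contig names from the list of hormone-related genes that accompanies the study, out of 52543 contigs with a sense probe, and each has a partner probe on the opposite strand, so that 4 of 105086 probes are described. That list holds genes that the study called differentially expressed at 12 h or 24 h, in part on these samples, so a change of either contig at 12 h is not independent evidence of its direction. The question of the comparison is which transcripts change in the parasite before early haustorial structures, the first stage of its infection organ, become visible.

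Jasmonates are lipid hormones made from polyunsaturated fatty acids. A lipoxygenase starts the pathway in the plastid, and the chain is then shortened in the peroxisome by beta-oxidation, whose last step is carried out by 3-ketoacyl-CoA thiolases such as PKT3. The same thiolase step breaks down storage oil in germinating seeds of Arabidopsis. JAR1, an enzyme of the GH3 family, joins jasmonic acid to isoleucine, and this conjugate is the form that the jasmonate receptor of Arabidopsis binds. Neither enzyme has been assayed here, and the names rest on the best match of a contig.

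The exudate group consisted of 4 samples of wild-type germinated seeds kept for 12 h in root exudates of *Brassica napus*, and the control group of 4 samples kept for 12 h in the incubation medium without exudates. Seeds of both groups had been conditioned for 7 days and germinated for 4 days with the synthetic stimulant *rac*-GR24, in the dark. The seeds were collected from field-grown broomrape, each RNA came from many whole germinated seeds, and the labels give half-diluted exudates where the methods give crude ones. In whole seeds, fewer cells of a kind and less transcript per cell cannot be told apart. The labels describe 4 replicates grown independently and the methods describe 2 biological replicates with the dyes exchanged. If the methods hold, dye swaps were counted as replicates and p-values measure in part technical spread.

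Each array held 1 exudate and 1 control sample in different dyes, and all 4 arrays lay on 1 slide. The exudate sample was in Cy3 on arrays 1 and 2 and in Cy5 on arrays 3 and 4. The exudate sample of array 3 had the fewest sense probes well above background, 37.5% against 57.2% to 69.3% in the other channels. Of 6 contigs of the list annotated as the seed storage cupins CRA1 and PAP85, 2 were well above background on all 4 exudate arrays and 6 on all 4 control arrays. The others were well above background on 3 of 4 exudate arrays. They come from the list of changed genes, so nothing is read from the difference between the groups. Of 30641 sense probes tested, 17.9% were called, which means a limma adjusted p below 0.05 together with a ratio past 1.5 upwards or 0.75 downwards. Calls of lower level made up 12.8% of the tested probes, and calls of higher level 5.12%. These shares changed with the arrays used, and 419 probes were called as higher and 258 as lower without replicate 1, against 1569 and 3922 with all arrays. Without replicates 2, 3 and 4 in turn, 1401, 1478 and 1041 were called as higher and 4135, 1859 and 1757 as lower. The cause of these changes was not tested.

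JAR1 transcripts fell in exudate-treated seeds to 24.9% of the level in control seeds, in which they were well detected. The median signal of the JAR1 probe, as the mean of its 2 spots, was 259, 503.5, 201.5 and 337 in the exudate channels of arrays 1 to 4, against 2096, 1063, 2013 and 1278 in the control channels. Every exudate value lay below every control value, so that the groups did not overlap. How often this holds among all tested probes is not given here. The local background was 51, 52.5, 144 and 157 in the exudate channels and 160, 159, 48.5 and 50.3 in the control channels, higher in Cy5 than in Cy3. The probe was well above background at both spots on 3 of 4 exudate arrays and at 1 of 2 spots on array 3, and on 4 of 4 control arrays. It entered the test through the control group, in which it was the brighter. After normalization within and between arrays, the level was 8.25 ± 0.22 in exudate-treated and 10.26 ± 0.59 in control seeds (log2 units, SD, n = 4 each), again without overlap.

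**Figure D1:**
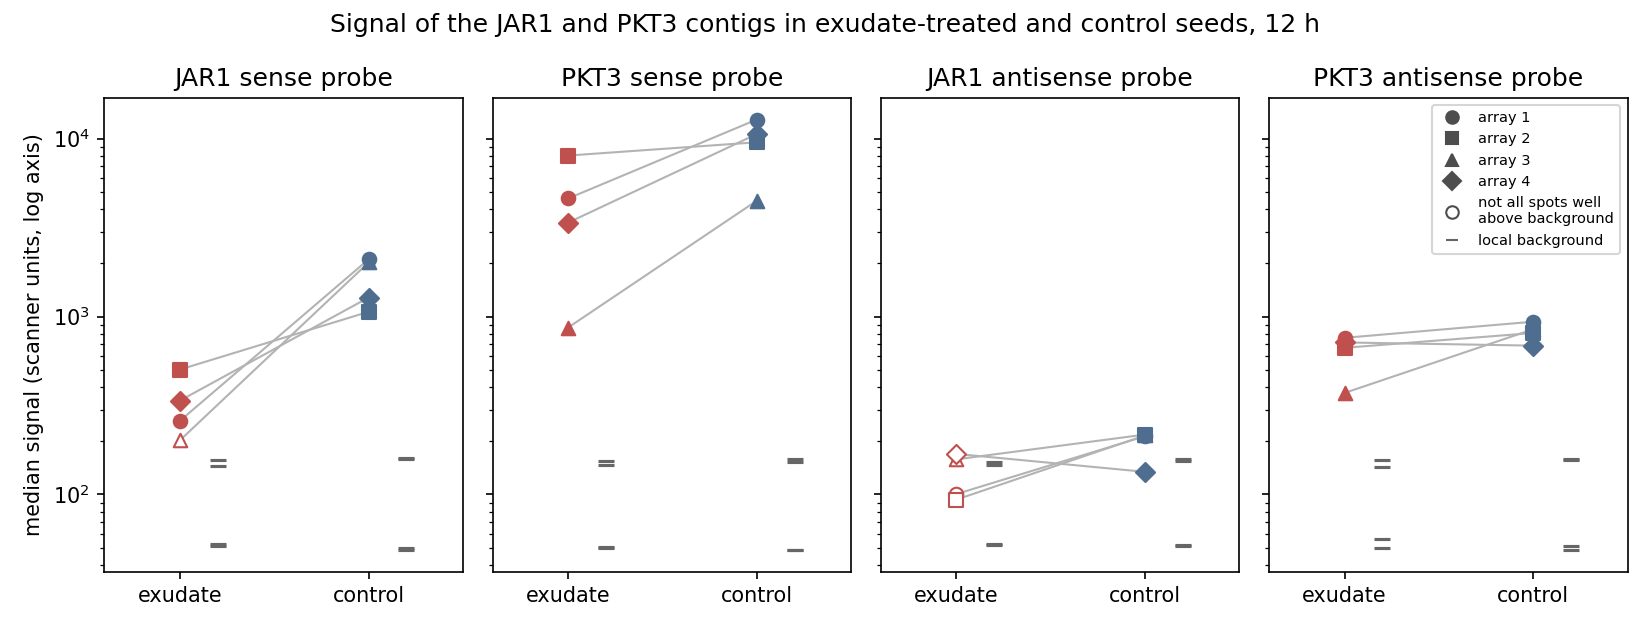
Median signal in scanner units on a log axis of the sense and antisense probes of JAR1 and PKT3, with exudate-treated seeds left of control seeds and a line joining both samples of an array. Open symbols mark samples in which not all spots were well above background, and short bars give the local background. JAR1 signal lay between 201.5 and 503.5 in the exudate samples and between 1063 and 2096 in the control samples, whereas the PKT3 sense signal overlapped between groups and was lower in the exudate sample on each array.

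PKT3 transcripts fell to 52.8% of the control level. Its sense probe had a median signal of 4608, 8028, 867 and 3369.5 in the exudate channels of arrays 1 to 4, against 12793, 9533.5, 4474.5 and 10601 in the control channels. The exudate sample of array 2 was brighter than the control sample of array 3, so the groups overlapped, although the exudate sample was the dimmer one on all 4 arrays. The probe was well above background at both spots in all 8 channels and was saturated in none. The normalized level was 11.87 ± 0.53 in exudate-treated and 12.79 ± 0.50 in control seeds (log2 units, SD, n = 4 each), and both groups had their lowest value on array 3.

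The log2 ratio of exudate to control for JAR1 was -2.66, -1.16, -2.53 and -1.67 on arrays 1 to 4. The fall was deepest on arrays 1 and 3 and shallowest on array 2. Its mean was -2.01 ± 0.71 (SD, n = 4 arrays), which leaves 24.9% of the control level, with a 95% interval of the limma fit between -2.55 and -1.46 and an adjusted p of 0.000833. With no filter on dim probes the limma adjusted p was 0.0289, and JAR1 was not tested where both groups had to be well above background on all arrays. For PKT3 the log2 ratio was -1.17, -0.51, -0.97 and -1.04 on the same arrays, close to 1 log2 unit on 3 of them. Its mean was -0.92 ± 0.29 (SD, n = 4 arrays), which leaves 52.8% of the control level, with a 95% interval between -1.34 and -0.51 and a limma adjusted p of 0.0106. Both sense probes were thus called as lower, beside 12.8% of all tested sense probes, and nothing is read from that count because the list was chosen in part on these samples.

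Both falls were seen under both dye orientations. JAR1 had a mean log2 ratio of -1.91 on the arrays with exudate in Cy3 and of -2.10 on those with exudate in Cy5. For PKT3 these means were -0.84 and -1.0. The 2 spots of a probe differed in log2 ratio by at most 0.11 for JAR1 and by at most 0.22 for PKT3 on any array. The call of PKT3 was lost with no replicate block, that is with the channels compared without the pairing, and without replicate 1. Its limma adjusted p was 0.0865 in the former and 0.0812 in the latter, with a log2 ratio of -0.84 without replicate 1. JAR1 was called in both of these fits, with limma adjusted p of 0.00679 and 0.00964. With the authors' deposited log2 values paired by replicate number, JAR1 and PKT3 had limma adjusted p of 0.324 and 0.553, and neither was called. In that fit 0 of 30641 sense probes were called, so the lost calls are not particular to these contigs. Without replicate 3, whose exudate channel had the fewest sense probes well above background, the log2 ratio was -1.83 for JAR1 and -0.90 for PKT3. Both contigs were called in that fit.

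**Figure D2:**
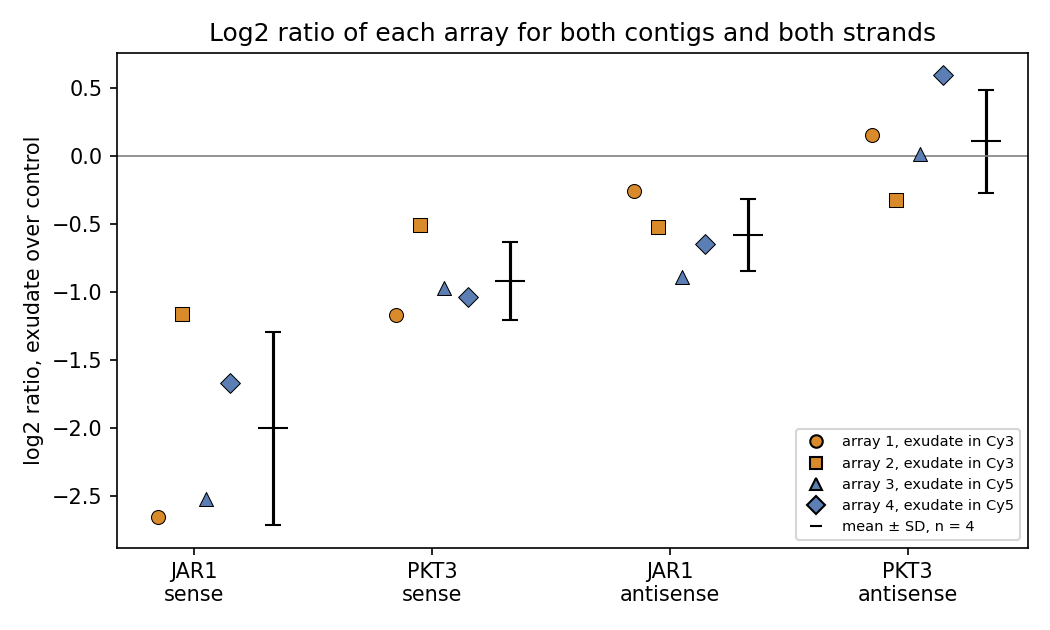
Log2 ratio of exudate to control on each of the 4 arrays for the sense and antisense probes of JAR1 and PKT3, coloured by the dye of the exudate sample, with the mean and SD (n = 4 arrays) beside them. The sense ratios of both contigs lay below 0 on all arrays under both dye orientations, whereas the antisense ratios of PKT3 lay on both sides of 0.

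JAR1 fell further than PKT3 on each of the 4 arrays. The difference of their log2 ratios, JAR1 minus PKT3, was -1.49, -0.66, -1.56 and -0.64, with a mean of -1.08 ± 0.51 (SD, n = 4 arrays). The exact sign-flip permutation test over arrays gave a two-sided p of 0.13, the smallest that 4 arrays allow, so this design could not reach 0.05. The spread of JAR1 over arrays was the wider one, with an SD of 0.71 against 0.29 for PKT3.

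Set beside all 30641 tested sense probes, 13 had a lower mean log2 ratio than JAR1 and 1390 a lower one than PKT3. These positions describe the size of the falls and were not tested. On arrays 1 to 4, the number of probes below JAR1 was 41, 47, 24 and 103. The number below PKT3 was 3032, 2602, 3015 and 1279. JAR1 therefore lay near the bottom of each array, also on array 2, where its own ratio was the smallest in size. There the ratios of all probes were packed closest, with the 5th and 95th percentiles at -0.60 and 0.62, against -1.47 and 1.09 on array 1. The median tested sense probe had a log2 ratio of -0.21, -0.09, -0.29 and -0.02 on arrays 1 to 4. Relative to the median over the mean ratios, -0.14, JAR1 was lower by 1.87 and PKT3 by 0.78 log2 units.

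**Figure D3:**
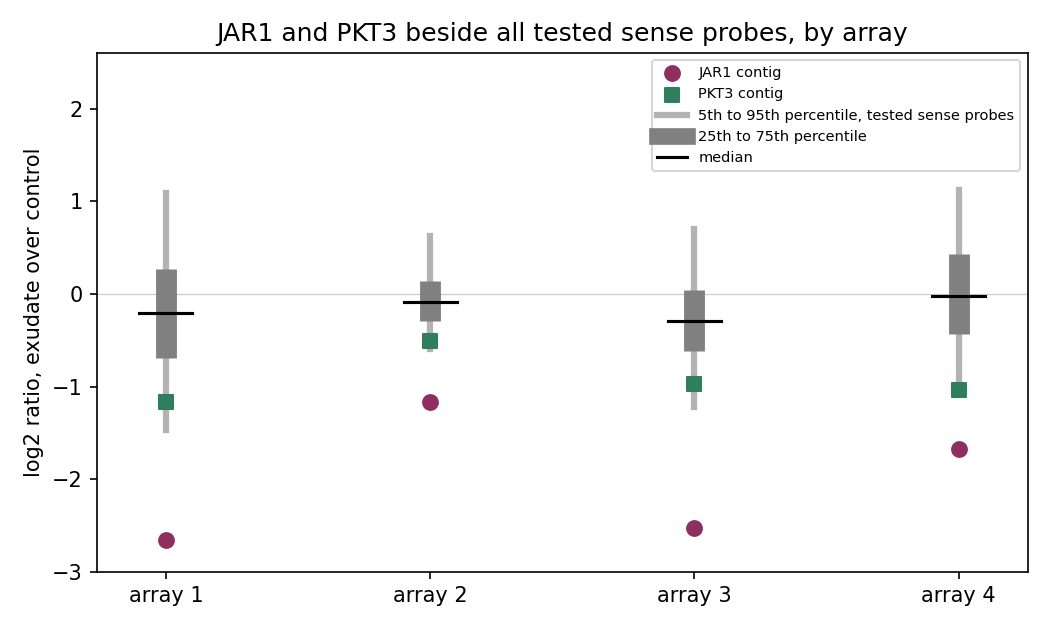
Log2 ratio of exudate to control for the JAR1 and PKT3 contigs on each array, beside the median, the 25th to 75th and the 5th to 95th percentiles of 30641 tested sense probes. JAR1 lay below the 5th percentile on all 4 arrays, and PKT3 lay inside the 5th to 95th percentile range on arrays 1 to 3 and below it on array 4.

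The probes with the ratios most like those of each contig were found by the root mean square difference over the 4 arrays, which all probes share. For JAR1 the closest were Pram_04953 (difference 0.17), Pram_07396 (0.19) and Pram_01076 (0.20), with mean log2 ratios of -1.90, -1.89 and -1.90. Within 0.25 of JAR1 lay 6 probes, and 547 within 0.25 of PKT3. Few probes have a mean as low as that of JAR1, so nothing on its pattern over arrays is read from these counts. The closest to PKT3 were Pram_02048 (0.034), Pram_04519 (0.054) and Pram_32093 (0.063), with mean log2 ratios between -0.94 and -0.89. No gene name is paired with these 6 contigs in the sources used here. Among the 61 other tested contigs of the hormone list, those closest to JAR1 were the CRA1 cupin contigs Pram_11310 (0.32) and Pram_13641 (0.34), which code for seed storage protein. Those closest to PKT3 were Pram_19010 (0.23), annotated as CAND1, a regulator of cullin-based ubiquitin ligases, and Pram_31475 (0.30), annotated as the storage protein PAP85.

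Each antisense partner of the 2 contigs was spotted 1 time, so its value rests on a single spot per array. The JAR1 partner was near background, with a signal of 100.5, 93.5, 157.5 and 169 in the exudate channels of arrays 1 to 4, against 212.5, 214.5, 217 and 134 in the control channels. It was well above background on 0 of 4 exudate arrays and 3 of 4 control arrays and was not tested. Its log2 ratio lay between -0.89 and -0.25, below 0 on all 4 arrays. An approximate bound on the normalized scale put its signal 1.38-fold lower in exudate-treated seeds. Without background correction its mean log2 ratio was -0.37, a smaller difference than this bound, which is therefore not a minimum over the ways of processing. The bound sets the mean control level against the higher of the exudate signal and the dimmest probe well above background on the array, after loess and Aquantile normalization, and the control mean includes array 1, on which the probe was not well above background.

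The PKT3 partner was well above background in all 8 channels. Its signal was 759, 667, 372 and 715 in the exudate channels of arrays 1 to 4, against 935, 808, 848 and 686 in the control channels, and the groups overlapped. The log2 ratio was 0.15, -0.33, 0.01 and 0.59, with a mean of 0.11 ± 0.38 (SD, n = 4 arrays). An approximate 95% interval, with the limma standard error but the degrees of freedom of the sense-probe fit, lay between -0.38 and 0.60. The probe was not called (limma adjusted p = 0.794), beside 8.52% of 16084 tested antisense probes that were, 8.34% as higher and 0.18% as lower. Its mean was -0.31 with median centring of the arrays and also with loess fitted to each strand apart, so that no direction is given. The median tested antisense probe had a log2 ratio of 0.33, 0.26, 0.59 and -0.04 on arrays 1 to 4, above the median sense probe on arrays 1 to 3.

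Within each array the sense ratio of PKT3 was lower than that of its partner, with differences, sense minus antisense, of -1.33, -0.18, -0.99 and -1.63 on arrays 1 to 4. The mean difference was -1.03 ± 0.62 (SD, n = 4 arrays, two-sided exact sign-flip p = 0.13, the smallest possible). With loess fitted to each strand apart, the mean log2 ratios were closer, with -0.84 for the PKT3 sense probe and -0.31 for its partner. For JAR1 the same difference was -2.41, -0.64, -1.64 and -1.03, with a mean of -1.43 ± 0.77 (SD, n = 4 arrays, two-sided exact sign-flip p = 0.13). With the processed signal of the scanner, the mean log2 ratio was -2.66 for the JAR1 sense probe and -2.21 for its partner.

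The jasmonate section of the hormone list names 10 contigs besides JAR1 and PKT3, of which 7 could be tested. Of these, 2 were called as higher, 1 as lower and 4 were not called, and the median log2 ratio of the 7 was 0.24, against -0.14 over all tested sense probes. Of all tested sense probes 5.12% were called as higher and 12.8% as lower, and nothing is read from the counts of the section because the study listed these contigs for their change. LOX4 is the only one of the 10 annotated as an enzyme of jasmonate synthesis. This lipoxygenase of the first step had log2 ratios of -0.43, 0.50, 0.19 and -0.14, which fell on both sides of 0. The LOX4 mean was 0.03 ± 0.40 (SD over 4 arrays), with a 95% interval between -0.41 and 0.47 and a limma adjusted p of 0.932, and the probe passed background on 2 of 4 exudate and 4 of 4 control arrays. With median centring the mean was -0.07. Whether LOX4 differed from JAR1 or PKT3 was not tested.

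Regulators of the section were called in both directions. The MYB factor MYB30 (Pram_25764), known in Arabidopsis as a regulator of defence-related cell death, rose with log2 ratios of 2.04, 1.90, 1.18 and 1.01, on average 1.53 ± 0.51 (SD over 4 arrays) with a limma adjusted p of 0.00185. A contig annotated as an F-box protein (Pram_36315) rose with ratios of 1.81, 1.26, 1.14 and 1.28, on average 1.37 ± 0.30 (SD over 4 arrays) with a limma adjusted p of 0.00167. MYB4 (Pram_44998), a repressor of phenylpropanoid genes in Arabidopsis, fell with ratios of -1.12, -0.90, -1.48 and -1.08, on average -1.15 ± 0.24 (SD over 4 arrays) with a limma adjusted p of 0.00383. These 3 contigs kept to their side of 0 on all 4 arrays and were called without any 1 of the arrays.

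The remaining contigs of the section were not called or could not be tested. EIN2, the central membrane protein of ethylene signalling, had a mean log2 ratio of 0.39 with a limma adjusted p of 0.157, above 0 on all 4 arrays. The transporter PDR12 had a mean of 0.24 (-0.02 with median centring) and the cullin CUL1 one of -0.16, with limma adjusted p of 0.458 and 0.573. EIN2 and PDR12 were each well above background on 3 of 4 exudate and 4 of 4 control arrays. MYB108, DREB26 and a homeodomain-like contig (Pram_20839) were too dim for the test, being well above background on 2, 3 and 3 of 4 exudate arrays and on 1, 1 and 2 of 4 control arrays. Their mean log2 ratios were 0.46, 0.51 and 0.58, and those of MYB108 and the homeodomain-like contig were not above 0 on all arrays.

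Of the contigs that the list gives elsewhere, PMDH2 and APX3 are annotated as peroxisomal, as PKT3 is, and both were called as lower, beside 12.8% of all tested sense probes. They too were taken from the study's list of changed genes, and nothing is read from that count. PMDH2 (Pram_10897), a malate dehydrogenase that reoxidizes NADH in the peroxisome during beta-oxidation, had log2 ratios of -1.03, -0.85, -0.96 and -0.48 on arrays 1 to 4. PMDH2 averaged -0.83 ± 0.24 (SD over 4 arrays) and had a limma adjusted p of 0.0144. APX3 (Pram_46674), an ascorbate peroxidase of the peroxisomal membrane, had ratios of -1.13, -0.71, -1.46 and -0.05, on average -0.84 ± 0.61 (SD over 4 arrays) with a limma adjusted p of 0.0305. The ratios of PMDH2 and APX3 lay below 0 on all 4 arrays, that of APX3 on array 4 close to 0. Without replicate 1, PMDH2 and APX3 had limma adjusted p of 0.0987 and 0.167 and were not called, and APX3 had 0.112 without replicate 3. With no replicate block these were 0.404 and 0.193.

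**Figure D4:**
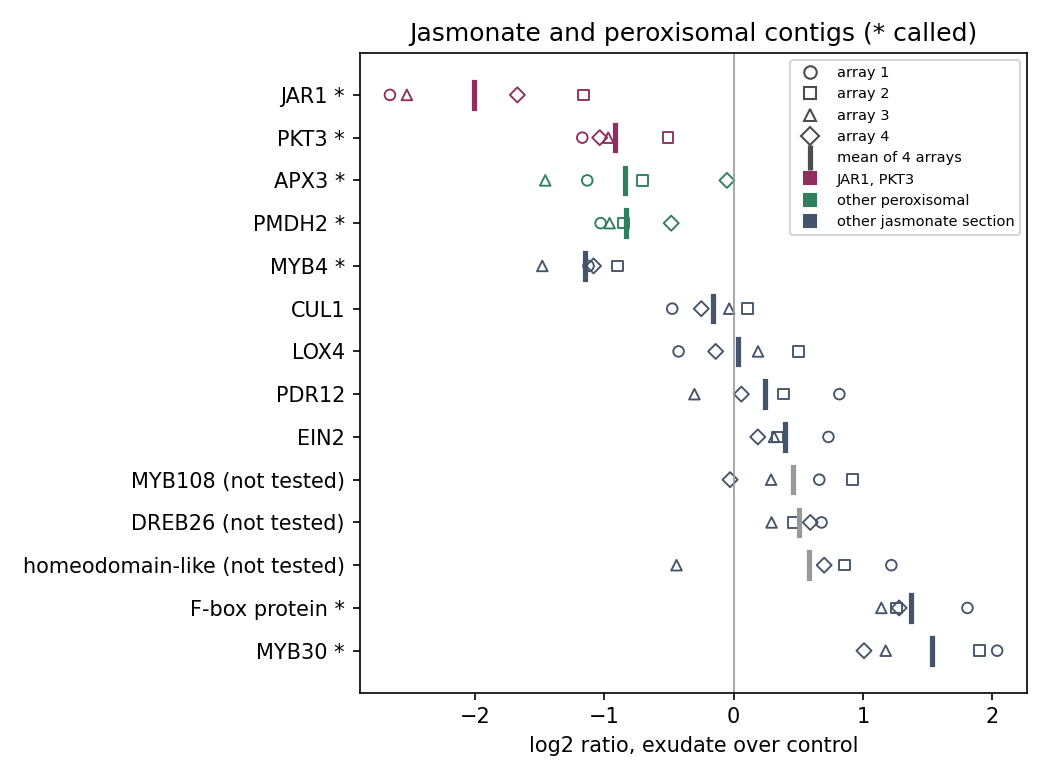
Log2 ratio of exudate to control on each of the 4 arrays (open symbols) and their mean (bars) for JAR1 and PKT3, the other peroxisomal contigs and the other contigs of the jasmonate section of the hormone list. Asterisks mark contigs with a limma adjusted p below 0.05 and a fold change past the limits. JAR1, with a mean of -2.01, was the lowest and MYB30, with 1.53, the highest.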

How the data were processed

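Samples, groups and dyes were taken from the labels. The authors deposited the output of Agilent Feature Extraction 11.5.1.1 for each array, with the median intensity, local background intensity, processed intensity and flags of each spot and channel on a linear scale; only the processed intensity had been dye-normalized. The authors also deposited processed log2 values of the sense probes, whose scale and normalization are not described (limma is named in the submitters' processing notes); these served as an alternative, and 0 columns of values per sample were left unused. Control columns followed the array of their number, and the exudate columns 1, 2, 3 and 4 correlated most with arrays 3, 4, 1 and 2.

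After normexp background correction (offset 50), median intensities were normalized by loess within each array (span 0.3, 4 iterations, control spots without weight) in R 4.3.3 with limma 3.58.1. This offset makes ratios of dim probes smaller. Control and outlier spots were then left out, the spots of a probe were averaged and ratios were turned to exudate over control. A probe was tested if 1 group or both had it well above background on each of the 4 arrays, which 30641 sense and 16084 antisense probes met. The test was limma's lmFit and eBayes, adjusted by Benjamini-Hochberg within each strand. The fold limits are those named in the study's text, whereas a figure caption of the study gives these numbers as log2 limits. The p limit was set here. Levels per channel were taken after loess and Aquantile normalization. The number of arrays limits the precision. The steps were tested on simulated data with as many rises as falls planted, which does not cover the excess of falls called here.

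The ratio pairs the samples of an array, and the pairing comes from the shared array. After removal of group means, the Pearson r between the 2 channels, taken over tested sense probes, was 0.22, 0.24, 0.75 and -0.24 on arrays 1 to 4. The highest r of the same exudate channels with the control channel of another array was 0.30, 0.27, 0.19 and 0.66, which for arrays 1, 2 and 4 exceeds the value within the array. With a single slide, no slide block could be fitted. The contigs, lists and alternatives were chosen with earlier results of these data known. The genes named are both contigs with their partners, the other contigs of the jasmonate section, the contigs of the list annotated as peroxisomal, and for each of JAR1 and PKT3 the 3 probes and the 2 listed contigs closest in root mean square difference. Later times of treatment were not analysed here.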

Additional observations from a re-analysis of the deposited data

How the results depend on the processing

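JAR1 kept its direction under all 16 alternatives, with log2 ratios between -2.66 and -1.79, and was called in each fit that tested it except with the deposited log2 values paired by replicate number, where the value was -1.82 with a limma adjusted p of 0.324. It was not tested where both channels had to be above background on all arrays. PKT3 kept its direction under all 16, with values between -1.29 and -0.84. Changes of the filter, the dye covariate, the averaging of arrays and the fit with no replicate block leave both mean ratios as reported. Their direction could not change there, and both pairings of the deposited values share the same mean. PKT3 lost its call with no replicate block (-0.92), without replicate 1 and with the deposited values paired by replicate number (-0.98, limma adjusted p = 0.553). With 1 replicate left out in turn, PKT3 lay from -1.06 to -0.84 and JAR1 from -2.29 to -1.79. The exudate columns of the deposited table follow arrays of other numbers, and paired by array they gave -1.82 and -0.98 with limma adjusted p of 0.00504 and 0.0124. JAR1 minus PKT3 stayed below 0 in all 15 alternatives that gave a value, with -1.69 to -0.84; without the pairing of an array it has no value per array. The value of the JAR1 antisense partner was -2.21 with the scanner's processed signal. That of the PKT3 partner was -0.31 with median centring and -0.31 with loess per strand, and 0.11 as reported.

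The 3 calls among the jasmonate contigs were 3 in 15 of 16 alternatives, and 0 with the deposited values paired by replicate number. The 2 peroxisomal calls became 1 with the processed signal, 1 without a filter on dim probes, 1 with a dye covariate, 0 with no replicate block and 0 with the deposited values paired by replicate number, and between 0 and 2 when 1 replicate was left out, with 0 without replicate 1 and 1 without replicate 3. The median sense ratio moved by 0.12 with loess per strand, by -0.13 with the processed signal and by -0.27 with median centring. Relative to that median, JAR1 stood at -1.86, -2.39 and -2.01 and PKT3 at -0.82, -0.70 and -0.89. Among all called sense probes, 28.6% were higher as reported, 47.8% with loess per strand, 8.36% with median centring and 61.9% without replicate 1, where 419 were higher and 258 lower. Calls of all sense probes were 1569 higher and 3922 lower as reported, 780 and 1579 with no replicate block, 824 and 1442 without a filter, 1161 and 2387 without background correction, 1165 and 2369 with a dye covariate, 1478 and 1859 without replicate 3 and 1041 and 1757 without replicate 4. With the deposited values they were 0 and 0 paired by replicate number, and 1477 and 3790 paired by array. The cause of these changes was not tested.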

Other observations

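The antisense partners of the other jasmonate and peroxisomal contigs were mostly too dim to test, with 4 of 12 tested and 1 called, beside 8.52% of all tested antisense probes. The called one was the partner of the F-box contig Pram_36315, with log2 ratios of 1.33, 0.37, 1.27 and 1.35 on arrays 1 to 4. These averaged 1.08 ± 0.47 (SD over 4 arrays) with a limma adjusted p of 0.024, in the direction of its sense probe. This partner was well above background on 4 of 4 exudate and 1 of 4 control arrays. It entered the test only through the exudate group, in which it was the brighter, so nothing is read from its call. The partner of MYB4 had a mean of 0.07 (limma adjusted p = 0.888) and that of APX3 one of -0.12 (limma adjusted p = 0.764), while both sense probes were called as lower. For PMDH2 the partner was below 0 on all 4 arrays, with a mean of -0.53 (limma adjusted p = 0.17).

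In the deposited table, the exudate columns 1 to 4 held log2 values of 8.31, 8.68, 8.20 and 9.04 for JAR1, against 10.76, 10.16, 10.46 and 10.14 in the control columns. Every exudate value lay below every control value, whichever columns are paired, and the share of all probes with such a separation is not given here. For PKT3 the exudate columns held 10.57, 11.98, 12.45 and 12.96, against 13.70, 13.49, 11.56 and 13.14 in the control columns. Exudate column 1, which followed array 3, and control column 3 held the lowest values of their groups, so that the SD of the PKT3 ratio was 1.74 with the columns paired by number and 0.32 with them paired by array.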
